A study of Mus musculus with 6 samples.

Results

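The Dlx and Msx genes are the vertebrate distal-less and muscle-segment homeobox families, and their 8 members in the mouse gene tables (Dlx1, Dlx2, Dlx3, Dlx4, Dlx5, Dlx6, Msx1 and Msx2) were taken by name from the 46517 genes listed. Each symbol had 1 entry, and all 8 passed the filter on low counts that left 19640 genes for testing. They were followed in RNA sequencing libraries of hair germ stem cells. The mice were 60 days old, and the back skin was taken for sorting on day 3 after depilation, the plucking of hair that starts a new growth cycle. Sorting used YFP together with integrin b1, CD34, Sca-1 and Pcadherin. There were 3 groups of 2 libraries. All 3 carried Sox9-CreER and R26-lox-stop-lox-YFP, an inducible recombinase driven by the follicle stem cell gene Sox9 and the YFP that it switches on, so the controls (WT) were not free of transgenes. LEF1cKO added Lef1fl/fl, and LEF1_TCF7dKO, called the double knockout below, added both Lef1fl/fl and Tcf7-/-. The Tcf7 allele is lost from every cell of those mice, not only from the sorted ones. The sex of the mice was given as mixed. Whether the 2 libraries of a group came from separate animals or sorts is not stated, so the p-values below measure only the spread between these libraries, which may be technical.

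Dlx and Msx proteins are transcription factors that bind AT-rich DNA through a homeodomain. In the growing hair bulb, LEF1 and TCF7 act with beta-catenin at the end of the Wnt pathway, and BMP signals also reach the matrix, the dividing cells that give rise to the hair shaft and the inner root sheath around it. Dlx3 is needed for hair shaft and inner root sheath formation and is a Wnt target in the follicle, Msx2 takes part in shaft differentiation, and Msx1 and Msx2 are known BMP targets. The Dlx genes lie in the genome as 3 pairs, Dlx1 with Dlx2, Dlx3 with Dlx4, and Dlx5 with Dlx6, whose partners face each other and can share enhancers.

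The stretch that codes for the third helix of the homeodomain, which lies in the major groove of DNA, is shown for members of both families because it is a feature that they share, whether or not their level differed between genotypes. The sequences were read from the GENCODE M21 transcripts (GRCm38), 5′ to 3′, and the capitals mark the codons for the tryptophan, phenylalanine, glutamine and asparagine at the core of the helix.
Dlx1: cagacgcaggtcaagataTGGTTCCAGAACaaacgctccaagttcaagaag
Dlx2: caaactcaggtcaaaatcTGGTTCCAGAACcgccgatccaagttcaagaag
Dlx3: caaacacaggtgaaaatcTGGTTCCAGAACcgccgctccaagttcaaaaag
Dlx4: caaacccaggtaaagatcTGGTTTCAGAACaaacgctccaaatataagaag
Dlx5: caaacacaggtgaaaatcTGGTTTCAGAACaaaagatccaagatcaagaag
Dlx6: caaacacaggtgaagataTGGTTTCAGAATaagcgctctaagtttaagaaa
Msx2: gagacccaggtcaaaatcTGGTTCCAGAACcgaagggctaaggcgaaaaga
Over the 60 residues of the homeodomain, the 15 pairs of Dlx members had 47 to 58 residues in common, Msx1 and Msx2 had 58, and the 12 pairs of a Dlx with an Msx member had 31 to 36. The closest relative of Dlx1 was Dlx6 (58 of 60) and that of Dlx2 was Dlx5 (56 of 60), so close kinship in protein did not follow the pairs in the genome. Between full transcripts, the longest stretch that any of the 28 pairs of members shared exactly was 44 bases.

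Libraries summed to between 40480694 and 63220022 expected counts and had 14743 to 16032 genes at 1 TPM or more (a gene's share of all transcripts, corrected for transcript length and scaled to the same total in each library). The hair germ markers Cdh3 (P-cadherin) and Lgr5 were present, at 134 and 130.1 TPM and at 82.1 and 73.7 TPM in WT. Lef1 had WT values of 21.4 and 20.4 TPM, LEF1cKO values of 13.5 and 8.37, and double knockout values of 9.22 and 9.42. Its difference from WT passed the test in the double knockout (log2 -1.27, adjusted p = 0.0122, lost without any 1 of the WT or double knockout libraries, at up to 0.0827) and not in LEF1cKO (log2 -0.92, adjusted p = 0.282, but -1.36 and 0.0317 without LEF1cKO replicate 1). For Tcf7 the WT libraries stood at 26.9 and 36.01 TPM, those of LEF1cKO at 29.3 and 27.8, and those of the double knockout at 13.7 and 18.0 (log2 -1.37, adjusted p = 0.00641). The exons removed are not given in the labels, so neither level tests the deletion itself. Where a gene is called deleted below, the word names the genotype and not a measured loss. LEF1cKO replicate 1 went against the label of mixed sex, with Xist at 0.66 TPM against 309 to 380.0 TPM in the other 5 libraries. The comparisons of the Dlx and Msx genes that use LEF1cKO are therefore also given without it. That leaves the group with 1 library, which is then assumed to vary like the other groups, so such values describe that library.

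In WT, Dlx3 was the most abundant member and Dlx6 the least. Mean levels were 112.1 ± 14.9 TPM for Dlx3 (SD, n = 2, as for all means here), 75.3 ± 11.3 for Dlx2, 58.9 ± 2.11 for Msx2, 38.2 ± 10.4 for Msx1, 19.6 ± 3.95 for Dlx1 and 15.4 ± 0.33 for Dlx4. Dlx5 (3.29 ± 0.37 TPM) and Dlx6 (0.53 ± 0.18 TPM) were far below the rest. No 2 neighbours in this order overlapped between their WT libraries. LEF1cKO had the same order of means, but there each of the first 5 genes overlapped with the next, since its 2 libraries lay far apart. In the double knockout the order was Msx2, Dlx3, Dlx5, Dlx2, Dlx1, Msx1, Dlx4 and Dlx6. Dlx5 had moved from the seventh place to the third, its libraries overlapping those of Dlx3, and those of Dlx4 overlapped those of Dlx6.

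**Figure D1:**
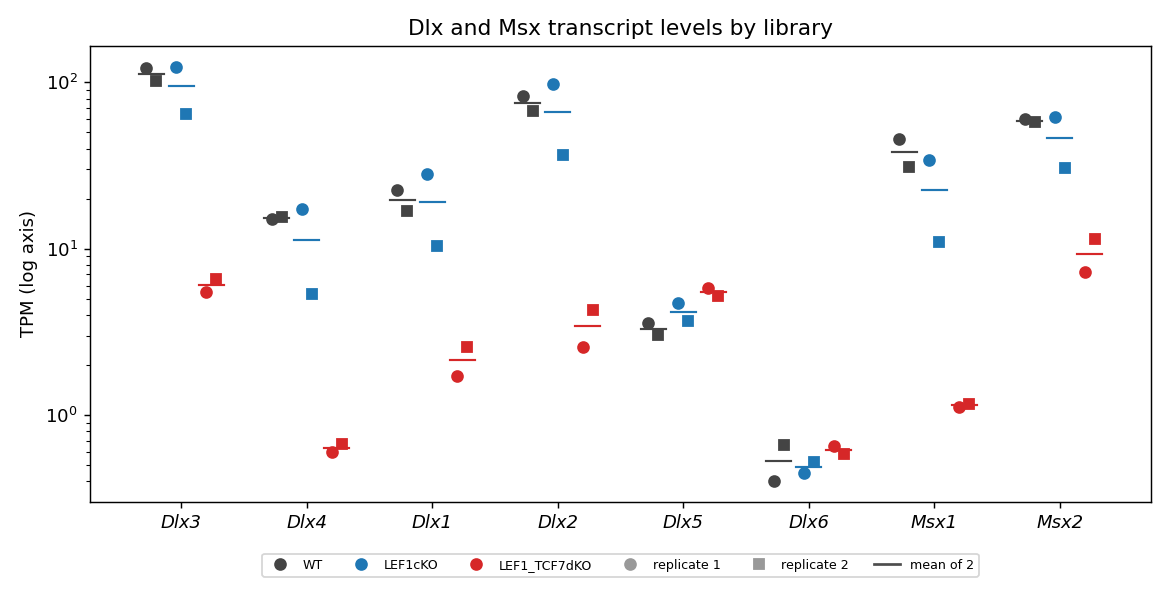
Level of each Dlx and Msx gene in TPM on a log axis, 1 point per library (circles for replicate 1, squares for replicate 2), by group (WT, LEF1cKO, LEF1_TCF7dKO), with bars at the means of 2. For Dlx1, Dlx2, Dlx3, Dlx4, Msx1 and Msx2 both double knockout libraries lie below all others, while Dlx5 lies between 3.03 and 5.82 TPM and Dlx6 between 0.4 and 0.66 TPM throughout.

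The double knockout had lower RNA from 6 of the 8 members. Against WT, Dlx1, Dlx2, Dlx3, Dlx4, Msx1 and Msx2 fell in the double knockout, none rose, and Dlx5 and Dlx6 did not pass the test (edgeR quasi-likelihood test, Benjamini-Hochberg adjusted p under 0.05 over all genes tested). Of all genes tested, 19.6% fell in this comparison and 18.0% rose, 37.6% together. The median log2 difference of the 8 members was -4.06, against 0.01 for all genes. All 6 calls held when each library was left out in turn and under each other normalization, filter and test tried. These are bulk samples, so fewer cells that express a gene and less of its RNA per cell cannot be told apart.

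Dlx3 and Dlx4 lie on chromosome 11, Dlx3 at 95120119 to 95125296 on the plus strand and Dlx4 at 95140447 to 95146263 on the minus strand (GENCODE M21 on GRCm38, as for all positions). Dlx3, the regulator of hair shaft and inner root sheath formation, measured 123 and 101.6 TPM in the WT libraries, against 124 and 64.7 with Lef1 deleted alone and 5.52 and 6.61 with both genes deleted. The double knockout libraries thus lay well below the other 4, and the log2 difference from WT was -4.34 ± 0.38 (SE), 20.3-fold lower (adjusted p = 0.00265). Dlx4, a shorter relative of Dlx3 that is less studied in hair, had WT values of 15.1 and 15.6 TPM, LEF1cKO values of 17.3 and 5.37, and double knockout values of 0.60 and 0.67. Its difference from WT was -4.72 ± 0.63 on the log2 scale, 26.3-fold lower (adjusted p = 0.00489), and here too both double knockout libraries were the lowest. Few reads stood behind the low values of Dlx4, with 25 and 33.6 expected counts in the double knockout against 944 and 1110 in WT, while Dlx3 still had 338 and 438.

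Dlx1 and Dlx2, which are best known from forebrain interneurons and the jaw, lie on chromosome 2, at 71528113 to 71533981 on the plus strand and 71543408 to 71546754 on the minus strand. Dlx2 stood at 83.3 and 67.3 TPM in both WT libraries, at 97.2 and 36.4 in those of LEF1cKO, and at 2.57 and 4.25 in those of the double knockout. It was 23.4-fold lower in the double knockout than in WT (log2 -4.55 ± 0.58, adjusted p = 0.00455). Dlx1 measured 22.4 and 16.9 TPM in the WT libraries, against 28.0 and 10.4 with Lef1 deleted alone and 1.72 and 2.56 with both genes deleted. It was 13.8-fold lower (log2 -3.78 ± 0.53, adjusted p = 0.00549), with no overlap between the double knockout and any other library. The effective length that the authors' program gave Dlx1 was 1708 and 1795 bases in the double knockout and 2366 to 2578 in the other libraries. With that length as an offset the log2 difference was -3.33.

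Msx1 lies on chromosome 5, at 37820485 to 37824583, and Msx2 on chromosome 13, at 53466884 to 53473074, both on the minus strand and without a family member beside them. Msx1, a transcriptional repressor downstream of BMP signals, had WT values of 45.5 and 30.8 TPM, LEF1cKO values of 34.3 and 10.9, and double knockout values of 1.11 and 1.17. Its fold difference was the largest of the 8, 36.8-fold lower in the double knockout than in WT (log2 -5.20 ± 0.65, adjusted p = 0.0044). That rank is not firm, since its interval of 1 SE met those of Dlx4 (-4.72 ± 0.63), Dlx2 (-4.55 ± 0.58) and Dlx3 (-4.34 ± 0.38). Behind the double knockout values of Msx1 stood 50 and 57 expected counts. Msx2, which is required for normal hair shaft differentiation, stood at 60.4 and 57.4 TPM in both WT libraries, at 61.8 and 30.5 in those of LEF1cKO, and at 7.26 and 11.4 in those of the double knockout. Among the 6 genes that fell, it had the smallest difference, 6.79-fold (log2 -2.76 ± 0.40, adjusted p = 0.00579), and it kept the highest level of any member in the double knockout. The intervals of one SE around the differences of Msx1 and Msx2 did not meet. The difference between them was not tested.

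Dlx5 and Dlx6, which act together in bone and limb development, lie on chromosome 6, Dlx6 at 6863334 to 6868568 on the plus strand and Dlx5 at 6877805 to 6882085 on the minus strand. Dlx5 measured 3.55 and 3.03 TPM in the WT libraries, against 4.70 and 3.66 with Lef1 deleted alone and 5.82 and 5.18 with both genes deleted. Both double knockout libraries lay above the other 4, but the difference from WT did not pass the test (log2 0.58 ± 0.26, adjusted p = 0.123). Dlx6 had WT values of 0.40 and 0.66 TPM, LEF1cKO values of 0.45 and 0.52, and double knockout values of 0.65 and 0.58, so that WT overlapped both other groups while the double knockout lay above LEF1cKO (log2 0.06 ± 0.38, adjusted p = 0.912). With 29.2 to 56.4 expected counts per library, Dlx6 had the least depth of the 8 members in the WT libraries, and its SE spans a wide range of possible differences.

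**Figure D2:**
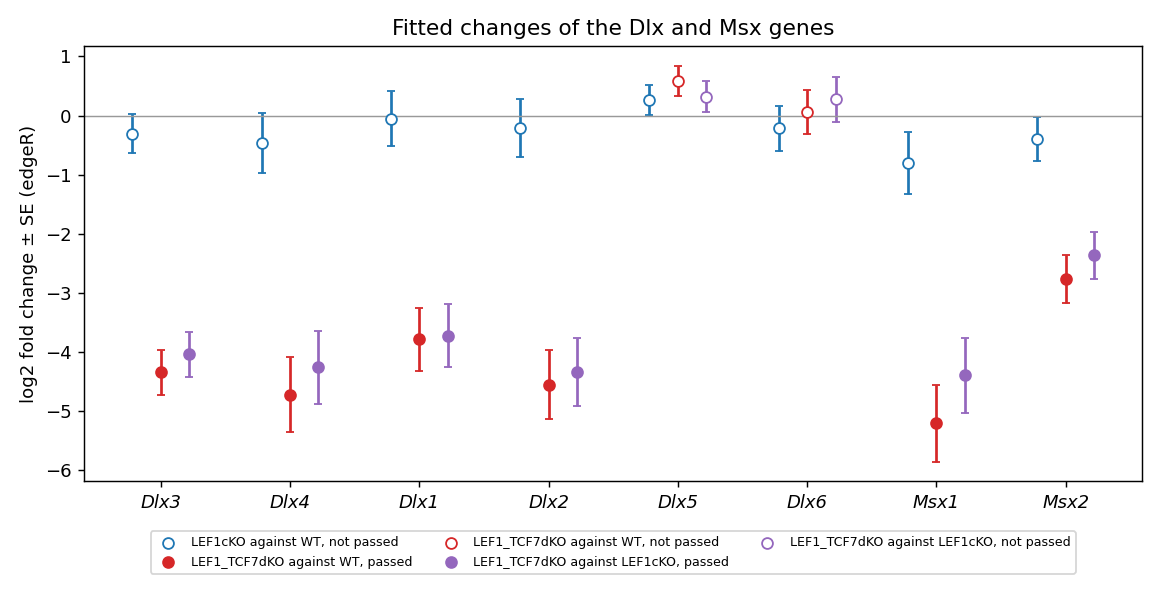
Log2 difference of each Dlx and Msx gene in the 3 comparisons, with the standard error of the edgeR fit as bars; filled points passed the adjusted p of 0.05. Against either other group the double knockout values of Dlx1, Dlx2, Dlx3, Dlx4, Msx1 and Msx2 lie between -5.20 and -2.36, whereas all LEF1cKO values against WT lie between -0.81 and 0.27 and none passed.

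No member had a change that passed the test in LEF1cKO, the group in which Lef1 alone was targeted. Lef1 RNA itself was not called lower there by edgeR (log2 -0.92, adjusted p = 0.282), so how far Lef1 was lost is not known. In LEF1cKO against WT, 0 of 8 members were called by edgeR, by DESeq2 or by limma voom, and 0 had an unadjusted p under 0.05 in edgeR, where 0.601% of all genes were called (0.224% higher and 0.377% lower). The log2 differences were -0.05 ± 0.46 for Dlx1, -0.21 ± 0.49 for Dlx2, -0.31 ± 0.33 for Dlx3, -0.46 ± 0.51 for Dlx4, 0.27 ± 0.26 for Dlx5, -0.21 ± 0.38 for Dlx6, -0.81 ± 0.52 for Msx1 and -0.40 ± 0.37 for Msx2. Adjusted p ranged from 0.728 (Msx1) to 0.991 (Dlx1). The member median was -0.26, against 0.01 for all genes. A p above the threshold does not show that the levels were alike, and the SEs leave room for differences in either direction for most members.

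The 2 LEF1cKO libraries differed from each other in the same 6 genes that fell in the double knockout. In percent of the WT mean TPM, replicate 1 had 143 of Dlx1, 129 of Dlx2, 111.0 of Dlx3, 112.3 of Dlx4, 89.8 of Msx1 and 105 of Msx2, close to or above the controls. Replicate 2 had 53.0, 48.4, 57.7, 34.9, 28.6 and 51.8 percent of these genes in the same order, so that it lay below both WT libraries and above both double knockout libraries for each of them. Dlx5 (143 and 111 percent) and Dlx6 (84.9 and 98.1 percent) showed no such gap. On the scale log2(TPM + 1), the 6 genes differed between these 2 libraries by 0.93 to 1.57, above the 95th percentile of all genes tested (0.89). In WT the same genes differed between libraries by 0.04 to 0.55 (95th percentile 0.52) and in the double knockout by 0.04 to 0.59 (95th percentile 0.82). Replicate 1 is the library with Xist at 0.66 TPM, and its Lef1 level was 13.5 TPM, against 8.37 in replicate 2. Replicate 2 had more RNA of fibroblast markers (a sum of 1108 against 588 TPM over the list). The same held for leukocyte markers (361 against 213 TPM) and sebaceous markers (556 against 208 TPM). Sums of melanocyte markers (265 against 399 TPM) and hair germ markers (654 against 784 TPM) were among those lower in replicate 2. The part of these differences in the gap was not tested.

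Without LEF1cKO replicate 1, the log2 differences from WT were -0.94 for Dlx1 (adjusted p = 0.28), -1.18 for Dlx2 (0.205), -0.92 for Dlx3 (0.133), -1.58 for Dlx4 (0.0751), -1.93 for Msx1 (0.0707), -1.05 for Msx2 (0.214), 0.03 for Dlx5 (0.973) and -0.15 for Dlx6 (0.918). Still none of the 8 passed. Without replicate 2 those of Dlx1, Dlx2, Dlx3, Dlx4, Msx1 and Msx2 were 0.49, 0.37, 0.12, 0.16, -0.18 and 0.04, so the sign for all of these but Msx1 depended on which library was kept.

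**Figure D3:**
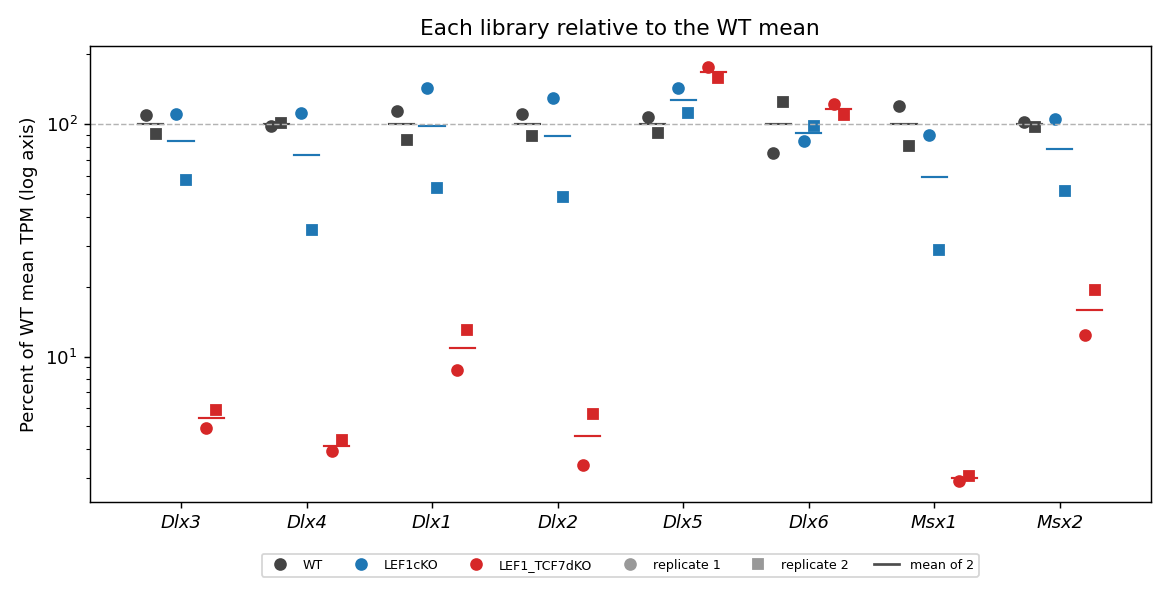
TPM of each Dlx and Msx gene in each library as a percent of its WT mean, on a log axis, with circles for replicate 1, squares for replicate 2 and bars at the group means. LEF1cKO replicate 2 lies between the WT and double knockout libraries for 6 genes, at 28.6 to 57.7 percent, while LEF1cKO replicate 1 lies at 89.8 to 143 percent for those genes.

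The double knockout was also compared with LEF1cKO, the groups that differ by Tcf7. The same 6 genes fell and none rose, where 14.1% of all genes fell and 11.2% rose, 25.2% together. This comparison shares the double knockout libraries with the one above, so the 2 are not independent. Log2 differences were -3.73 ± 0.53 for Dlx1 (adjusted p = 0.0121), -4.34 ± 0.57 for Dlx2 (0.0113), -4.04 ± 0.37 for Dlx3 (0.0107), -4.26 ± 0.62 for Dlx4 (0.0121), -4.40 ± 0.63 for Msx1 (0.0121) and -2.36 ± 0.40 for Msx2 (0.0149). Dlx5 (0.32 ± 0.26, adjusted p = 0.392) and Dlx6 (0.27 ± 0.38, adjusted p = 0.629) did not pass. The member median was -3.88, against 0.01 for all genes. These calls depended on double knockout replicate 1, and that of Msx1 on replicate 2 as well. Without replicate 1 of that group the 6 adjusted p-values were 0.0777 to 0.0953, at log2 differences from -4.32 (Msx1) to -2.05 (Msx2), and 1 gene of all those tested was called. Without its replicate 2, Msx1 missed the threshold at 0.051 and the other 5 passed. Without LEF1cKO replicate 1 all 6 passed, at log2 differences from -3.43 (Dlx3) to -1.71 (Msx2).

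The members' RNA added up to 353 and 293 TPM in the WT libraries, to 368 and 162.5 where Lef1 alone was deleted and to 25.2 and 32.4 where both genes were. Dlx5 made up 1.005 and 1.03 percent of that sum in WT and 23.1 and 16.0 percent in the double knockout, a shift that came with the smaller sum. Of the genomic pairs, the ratio of the partners was set apart in the double knockout from both other groups for Dlx2 and Dlx1 only. Dlx2 was at 3.71 and 3.99 times the TPM of Dlx1 in WT, 3.47 and 3.50 times in LEF1cKO, and 1.49 and 1.66 times in the double knockout. The ratio of Dlx3 to Dlx4 had WT values of 8.10 and 6.51, LEF1cKO values of 7.20 and 12.1, and double knockout values of 9.20 and 9.87. Its LEF1cKO libraries overlapped WT and enclosed the double knockout. The ratio of Dlx5 to Dlx6 had WT values of 8.88 and 4.59, LEF1cKO values of 10.4 and 7.04, and double knockout values of 8.95 and 8.93, the last just above WT and within the range of LEF1cKO. The Dlx2 to Dlx1 ratio was lower in both double knockout libraries than in any other. The ratio of Msx2 to Msx1 had WT values of 1.33 and 1.86, LEF1cKO values of 1.80 and 2.80, and double knockout values of 6.54 and 9.75. These ratios were not tested, and that of Dlx2 to Dlx1 uses the effective lengths given above.

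The protein-coding genes next to the members did not show falls of this size. Between Dlx1 and Dlx2 lie 9426 bases, between Dlx3 and Dlx4 15150 and between Dlx6 and Dlx5 9236, with the partners' transcripts running towards each other. Metap1d, a methionine aminopeptidase gene 2.92 kb from Dlx1, had a log2 difference of 0.45 between the double knockout and WT (adjusted p = 0.035, lost without any 1 of those 4 libraries, at up to 0.18). Itga3, an integrin gene 43.3 kb from Dlx3, had -0.21 (adjusted p = 0.229). Beside Dlx5 and Dlx6, Sdhaf3 (73.9 kb) had -0.24 (adjusted p = 0.406) and Shfm1 (284.7 kb) -0.47 (adjusted p = 0.026). The call of Shfm1 was not checked with single libraries left out. Beside the Msx genes, Stx18 (214.2 kb) had -0.47 (adjusted p = 0.0243, lost without any 1 of the WT or double knockout libraries) and Sptlc1 (89.5 kb) 0.25 (adjusted p = 0.082). Of the remaining neighbours, Itga6, the integrin alpha6 gene of basal keratinocytes, rose by 0.49 (adjusted p = 0.0144, lost without either WT library or double knockout replicate 1, at up to 0.13), Tac4 (1.37, adjusted p = 0.105) was at 0.42 TPM or less, Drd1 had -0.04 (adjusted p = 0.955) and Cytl1 was not tested.

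**Figure D4:**
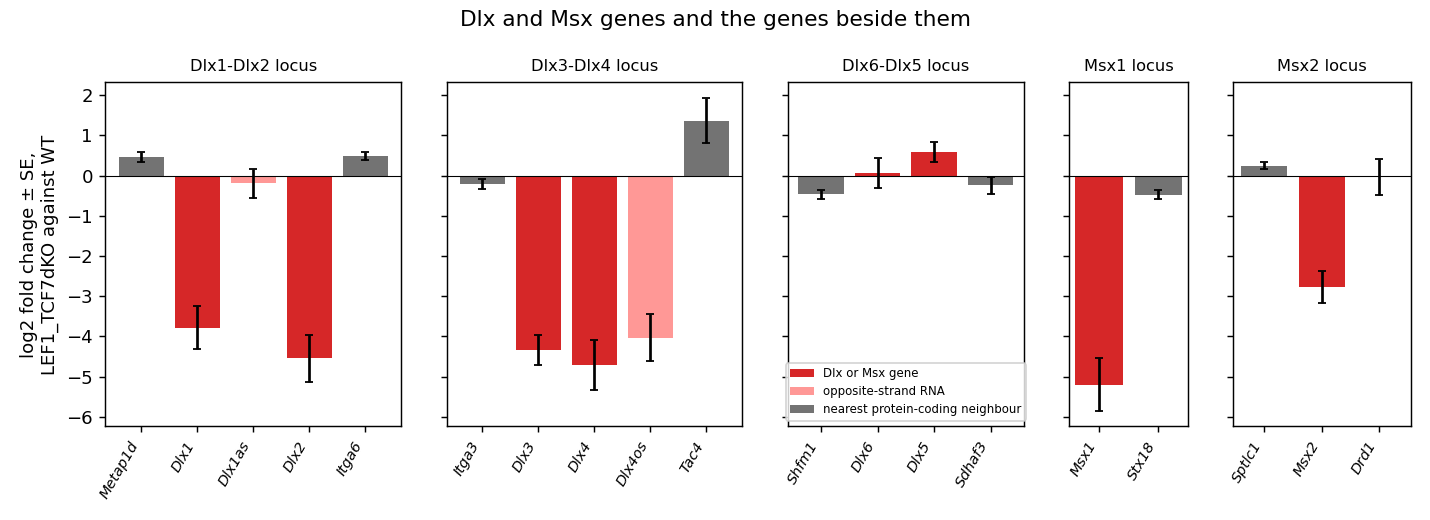
Log2 difference of the double knockout from WT for each Dlx and Msx gene, its nearest tested protein-coding neighbours and the opposite-strand RNAs Dlx1as and Dlx4os, as bars by locus, with the standard error of the edgeR fit as whiskers. Dlx1, Dlx2, Dlx3, Dlx4, Msx1 and Msx2 lie between -5.20 and -2.76, and the neighbours between -0.47 and 1.37, while Dlx4os is at -4.03.

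Opposite-strand RNAs overlap some members, and no source used here says whether the counting used strand, so reads from the shared bases cannot be told apart. Dlx4os, an opposite-strand RNA that shares 79 of the 3269 exon bases of Dlx4, stood at 8.65 and 6.96 TPM in both WT libraries, at 9.68 and 3.40 in those of LEF1cKO, and at 0.57 and 0.49 in those of the double knockout. It fell with Dlx4 in the double knockout against WT (log2 -4.03 ± 0.59, adjusted p = 0.00583), and its LEF1cKO libraries had the same gap. Dlx1as, which shares 335 of the 5396 exon bases of Dlx1, measured 2.43 and 3.40 TPM in the WT libraries, against 4.64 and 3.66 with Lef1 deleted alone and 3.23 and 2.27 with both genes deleted. The double knockout overlapped WT (log2 -0.19, adjusted p = 0.70), and both LEF1cKO libraries lay above the other 4. Dlx6os1 was at 0.02 TPM or less and Dlx6os2 at 0 in all 6 libraries, and neither was tested.

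Promoter sequences were at hand for Dlx1, Dlx2, Msx1 and Msx2, 4 of the 8 members, as windows of 300 bases from RefSeq (GRCm38.p6). The RefSeq starts of Dlx1 (71529445) and Msx2 (53472780) lie inside the GENCODE spans given above. The windows of these genes therefore lie within those spans, and not before the GENCODE start. The cores CTTTGAA and CTTTGAT, which are among the letters that LEF and TCF proteins bind, were searched on both strands. They were in none of the 4, and 8.65% of all 32851 promoter windows hold one. Other forms of the core were not searched. The homeodomain core TAATTA, which cannot overlap those letters in full, was in the window of Msx2 and in 5.29% of all windows. The Msx2 match lies 187 bases before the RefSeq start but inside the GENCODE span of Msx2. It is shown with capitals on the core, because Dlx and Msx proteins themselves bind such letters (minus strand, chr13:53472950-53472979).
Msx2: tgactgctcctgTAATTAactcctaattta
The 250 bases before the start are shown for Dlx2 and Msx1, genes from different chromosomes whose levels were among the lowest relative to WT. The capitals mark CCAAT or its reverse complement ATTGG, a general promoter element that was searched after the sequences had been read. It was in the windows of Dlx2, Msx1 and Msx2 and in 37.4% of all windows.
Dlx2 (minus strand, chr2:71546755-71547004): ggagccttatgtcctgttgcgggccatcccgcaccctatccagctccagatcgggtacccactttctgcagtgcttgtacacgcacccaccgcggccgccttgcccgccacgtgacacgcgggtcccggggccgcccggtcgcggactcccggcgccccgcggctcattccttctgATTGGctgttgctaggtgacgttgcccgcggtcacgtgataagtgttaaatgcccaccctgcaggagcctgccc
Msx1 (minus strand, chr5:37824586-37824835): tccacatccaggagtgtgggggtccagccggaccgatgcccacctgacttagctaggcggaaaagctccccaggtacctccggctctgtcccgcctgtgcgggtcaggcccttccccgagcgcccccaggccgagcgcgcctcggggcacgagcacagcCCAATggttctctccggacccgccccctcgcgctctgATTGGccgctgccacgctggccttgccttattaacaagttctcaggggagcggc
Such matches describe the letters only, and windows of this size leave out distant enhancers.

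Genes of the BMP, Wnt and hedgehog pathways moved in both directions, as all genes tested did (18.0% rose and 19.6% fell in the double knockout against WT). Of 19 tested genes listed as BMP and Wnt inputs (ligands, receptors, signal carriers and standard targets), 7 rose, 7 fell and 5 did not pass in the double knockout against WT, with a median of -0.05. Among the ligands, Wnt3 had WT values of 2.76 and 3.09 TPM, LEF1cKO values of 4.43 and 9.30, and double knockout values of 28.6 and 34.0 (log2 3.28 ± 0.34, adjusted p = 0.0034). Bmp2, a BMP ligand, stood at 3.33 and 4.28 TPM in both WT libraries, at 2.91 and 5.04 in those of LEF1cKO, and at 15.5 and 15.9 in those of the double knockout (log2 1.91 ± 0.26, adjusted p = 0.00513). Both ligands thus rose where the 6 homeobox genes fell, but bulk samples do not show which cells made this RNA. Shh, the hedgehog ligand of the hair germ, measured 12.5 and 13.8 TPM in the WT libraries, against 7.55 and 9.72 with Lef1 deleted alone and 5.89 and 5.99 with both genes deleted (log2 -1.28 ± 0.15, adjusted p = 0.00409). Id2, a standard BMP target, had WT values of 50.3 and 50.9 TPM, LEF1cKO values of 29.7 and 21.3, and double knockout values of 24.7 and 23.0 (log2 -1.23 ± 0.20, adjusted p = 0.00712, or 0.0509 without double knockout replicate 1). In LEF1cKO against WT, 0 of the 19 were called by edgeR, with 5 at an unadjusted p under 0.05, 4 by DESeq2 and 0 by limma voom. In the double knockout, leaving out any 1 of the WT or double knockout libraries lowered these counts to between 2 and 4 in each direction. Without LEF1cKO replicate 1, 2 of the 19 were called in the remaining LEF1cKO library, Wnt3 higher and Id2 lower (adjusted p = 0.0458 and 0.0244).

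Other transcription factors of the matrix also split, with a share that fell near that of all genes tested (19.6% fell and 18.0% rose). Of 18 tested, 6 rose, 3 fell and 9 did not pass in the double knockout against WT, with a median of 0.33. Cux1, a homeobox repressor expressed in the inner root sheath, stood at 340 and 331 TPM in both WT libraries, at 469 and 237 in those of LEF1cKO, and at 67.4 and 68.0 in those of the double knockout (log2 -2.60 ± 0.35, adjusted p = 0.00493). Its LEF1cKO libraries lay on either side of WT, as those of Dlx1, Dlx2, Dlx3, Dlx4 and Msx2 did. Foxn1, which drives hair keratin expression, rose by 1.79 ± 0.23 (log2, adjusted p = 0.00446), from 1.30 and 1.51 TPM in WT to 5.05 and 5.64. Satb1, a chromatin organizer, rose by 2.75 ± 0.30 (adjusted p = 0.00356) and Grhl3, an epidermal barrier regulator, by 2.23 ± 0.15 (adjusted p = 0.00153). In LEF1cKO 0 of the 18 were called by edgeR (2 at an unadjusted p under 0.05, 1 by DESeq2, 0 by limma voom), and 0 without LEF1cKO replicate 1. In the double knockout, 3 rose and 1 fell without WT replicate 2, 3 rose without double knockout replicate 1, and 5 fell without double knockout replicate 2 or either LEF1cKO library.

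A list of homeobox genes from other families, which does not hold the homeobox genes Cux1 and Lhx2 counted among the matrix factors, had more members that rose than fell. Of 16 tested, 7 rose, 2 fell and 7 did not pass in the double knockout against WT, with a median of 0.67. Over all genes tested the shares were 18.0% and 19.6%. Irx2, an Iroquois gene, measured 343 and 354 TPM in the WT libraries, against 330.1 and 315 with Lef1 deleted alone and 167 and 229.5 with both genes deleted (log2 -0.97, adjusted p = 0.0167). Prrx1, a gene of mesenchymal cells, rose from 2.16 and 0.67 TPM in WT to 14.6 and 8.21 (log2 2.78, adjusted p = 0.0179). En1 (log2 2.40, adjusted p = 0.0162) and Hlx (log2 2.55, adjusted p = 0.0122) rose as well, from 0.48 TPM or less in WT. The calls of Irx2, Prrx1, En1 and Hlx were each lost without WT replicate 2 or double knockout replicate 1, and those of Irx2 and Hlx also without WT replicate 1. In the list, 3 rose and 0 fell without WT replicate 1, and 0 rose and 0 fell without WT replicate 2 or double knockout replicate 1. In LEF1cKO 0 of the 16 were called by edgeR (2 at an unadjusted p under 0.05, 0 by DESeq2 or limma voom), and 0 without LEF1cKO replicate 1.

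Keratins of the inner root sheath, a product of the matrix, fell with the Dlx and Msx genes, where 19.6% of all genes tested fell. Of 8 tested inner root sheath genes, 5 fell, none rose and 3 did not pass in the double knockout against WT, with a median of -3.90, and 3 fell without double knockout replicate 1. Krt28 had WT values of 175 and 146 TPM, LEF1cKO values of 147 and 43.9, and double knockout values of 4.63 and 3.60 (log2 -5.42 ± 0.65, adjusted p = 0.00409). Krt73 (log2 -4.70 ± 0.58, adjusted p = 0.00421) and Krt27 (log2 -3.37 ± 0.49, adjusted p = 0.00581) fell too, and Krt25, at 22.4 and 13.3 TPM in WT, was at 0.07 TPM in both double knockout libraries (adjusted p = 0.00616, or 0.0548 without double knockout replicate 1). Krt28 showed the LEF1cKO gap seen for the homeobox genes, with replicate 2 below WT and above the double knockout.

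Of 7 tested hair shaft keratins, 3 fell, 1 rose and 3 did not pass, with a median of -2.87, also with Krt81 at the bound that 0 counts allow. Shares over all genes tested were 19.6% falling and 18.0% rising. Krt83 (log2 -3.56 ± 0.50, adjusted p = 0.00536) and Krt35 (log2 -3.78 ± 0.66, adjusted p = 0.00866) fell, from 2.80 and 6.60 TPM or less in WT. Krt81, at 0.28 and 0.51 TPM in WT and listed at 0 in all 4 knockout libraries, was the third, and its call was lost without any 1 of the WT or double knockout libraries. Krt32 was the one that rose (log2 2.01 ± 0.32, adjusted p = 0.00707, or 0.0592 without WT replicate 2). In LEF1cKO against WT, 0 genes of either keratin list were called by edgeR (1 inner root sheath gene and 2 shaft keratins at an unadjusted p under 0.05), 0 by DESeq2, and 0 and 1 by limma voom. Without LEF1cKO replicate 1, Krt28 alone of both lists was called in the remaining LEF1cKO library, as lower (adjusted p = 0.0289).

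**Figure D5:**
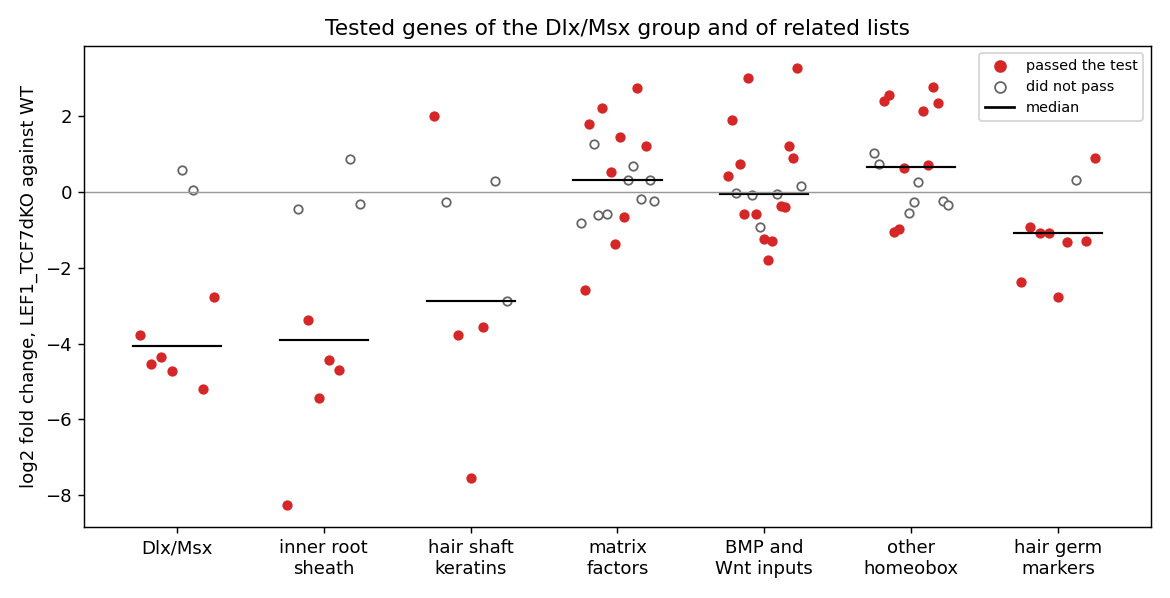
Log2 difference of the double knockout from WT for the genes of each list beside the Dlx and Msx genes, 1 point per gene tested, with the median as a bar; filled points passed the adjusted p of 0.05. The medians are -4.06 for the Dlx and Msx genes, -3.90 for inner root sheath genes, -2.87 for hair shaft keratins, -0.05 for BMP and Wnt inputs, 0.33 for matrix transcription factors, 0.67 for other homeobox genes and -1.07 for hair germ markers, a list that holds Msx2. Krt81, at 0 counts in the double knockout, is drawn at its fitted value, which is no bound.

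RNA of other cell types moved with the groups. For the double knockout counts below, 18.0% of all genes tested rose against WT and 19.6% fell. Of 13 tested markers of differentiated epidermis 11 rose and none fell in the double knockout against WT, and their summed level was 1831 to 2234 TPM in WT, 4006 to 4087 in LEF1cKO and 14688 to 15727 in the double knockout. Of these, 3 rose in LEF1cKO too, and 2 when any 1 library was left out, LEF1cKO replicate 1 included. Of 14 fibroblast and dermal papilla markers 11 rose, or 6 without WT replicate 2 and 3 without double knockout replicate 1, and 1 fell (sums of 289 to 527, 588 to 1108 and 2010 to 2597 TPM). Of 8 leukocyte markers 6 rose and none fell (49.6 to 130.4, 213 to 361 and 934 to 989 TPM). All 6 endothelial markers rose (6.29 to 7.37, 8.15 to 9.59 and 18.5 to 79.4 TPM), though 1 did without WT replicate 1, 0 without WT replicate 2 and 3 without double knockout replicate 1. Sebaceous markers had sums of 235 to 251, 208 to 556 and 609 to 1630 TPM, with 1 of 6 called higher, a call lost without any 1 of the WT libraries or double knockout replicate 1. Melanocyte markers (425 to 617, 265 to 399 and 295 to 525 TPM) had 1 of 8 called higher, a call lost without any 1 of the WT or double knockout libraries. Their double knockout sums overlapped both other groups, while WT lay above LEF1cKO. The 7 listed Merkel cell markers stayed at or below 1.73 TPM in sum, with the defining markers Atoh1 and Sst at 0 in every library. Only 3 of them were tested, and 1 fell, a call lost without most single libraries. Of 9 tested hair germ markers, Msx2 among them, 7 fell and 1 rose, and 4 fell without WT replicate 1 and 3 without WT replicate 2 or double knockout replicate 1. The sum over all 10 listed, Lef1 included, was 281 to 416 TPM in the double knockout against 633 to 667 in WT. Of 8 bulge markers 3 rose and 4 fell, with fewer in each direction without either WT library. The bulge calls of Cd34 and Sox9 were lost without double knockout replicate 1 too. Of the 5 genes for the surface proteins and the driver behind the sort, Cd34 and Ly6a (Sca-1) rose and Cdh3 and Sox9 fell, and all 4 calls were lost without WT replicate 2 or double knockout replicate 1. The part of these other cells in the lower Dlx and Msx levels was not tested.

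Genes with the pattern most like a member were sought over the 6 libraries, as the smallest root mean square distance of log2(TPM + 1) after centring each gene, among 11035 protein-coding genes with at least 5 TPM in a group. The nearest to Dlx2 was Dlx3 (0.17), followed by Myb (0.30) and Prss35 (0.30). The nearest to Dlx3 were Prss35 (0.15), Dlx2 (0.17) and Slc39a10 (0.20). On this scale Dlx2 and Dlx3, on different chromosomes, were thus closer to each other than either was to its genomic partner. The added 1 shrinks differences of genes at low TPM, such as Dlx4 and Dlx1 in the double knockout. The log2 difference of Dlx4 from WT was -3.324 on this scale and -4.398 with 0.1 added (limma), against -3.998 and -4.185 for Dlx3. For Dlx1 these values were -2.717 and -3.151, against -4.132 and -4.460 for Dlx2. Distances with 0.1 added were not computed. For Dlx1 the nearest were Slc16a7 (0.15), Msx2 (0.23) and Timp3 (0.24), with Dlx2 in place 109. For Dlx4 they were the histone genes Hist3h2ba (0.22) and Hist1h2ai (0.24) and Nrep (0.26). For Msx1 they were Myb (0.16), Foxe1 (0.18) and Slc39a10 (0.24), and for Msx2 Hist1h2bg (0.16), Basp1 (0.16) and the inner root sheath keratin Krt73 (0.17). For genes at low TPM a small distance does not mean a like fold difference. Krt73, at 6.22 and 6.81 TPM in WT, had a fitted log2 difference of -4.70 in the double knockout, against -2.76 for Msx2. Hist1h2ai had 0 counts in both double knockout libraries, where Dlx4 still had some. For Dlx5 the nearest were Phldb3 (0.03), Klhl7 (0.04) and Trmt13 (0.05), genes with small differences, among which a small distance is easily reached. Dlx6 was below 1 TPM and was left out.

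Prss35, which codes for a serine protease-like protein, stood at 80.4 and 80.5 TPM in both WT libraries, at 83.4 and 56.2 in those of LEF1cKO, and at 3.87 and 4.0 in those of the double knockout. Myb, a transcription factor of dividing progenitors, measured 45.2 and 36.9 TPM in the WT libraries, against 42.1 and 15.4 with Lef1 deleted alone and 1.89 and 1.91 with both genes deleted. Slc39a10, a zinc importer, had WT values of 410 and 305 TPM, LEF1cKO values of 339 and 169, and double knockout values of 24.6 and 23.9. In each of these 3 genes LEF1cKO replicate 2 lay between the WT and double knockout libraries, as it did for the 6 homeobox genes. None was called in LEF1cKO against WT, but without LEF1cKO replicate 1 Myb was called lower (log2 -1.52, adjusted p = 0.0425). These likenesses are over 6 libraries that share their groups, and they carry no test.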

How the data were processed

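RNA of sorted hair germ stem cells was measured in 3 genotypes with 2 libraries each. The authors aligned reads with Bowtie2 2.2.9 and estimated expression with RSEM 1.2.30 on mm10, per the submitters' processing notes; the gene annotation they used is not named there. The deposited tables hold expected counts, TPM, FPKM and lengths per gene, per the file headers; FPKM values, which the authors also deposited, were not used, and lengths served only as an offset. The 92 spike-in entries had 0 counts and were dropped.

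Expected counts were rounded and fitted with edgeR 4.0.16 (R 4.3.3; filterByExpr by group, TMM, quasi-likelihood F test, all 6 libraries in 1 fit, 3 residual degrees of freedom, Benjamini-Hochberg adjustment over 19640 genes, threshold 0.05). The SE is the log2 difference over the root of F. Alternatives used DESeq2 1.42.0, limma 3.58.1 (voom, and log2 of TPM plus 1 or 0.1), other normalizations and filters, and left out each library. The fit was tested on simulated data with 200 planted changes. The members and the gene lists were chosen with earlier results of these data known. Genes named are the members, their neighbours, the 3 genes most like each member at 1 TPM or more, up to 4 genes of each list with the smallest p in the double knockout against WT, and the targeted genes; Lgr5, Atoh1, Sst and Xist were named as cell or sample checks after their values were seen. GENCODE M21 gave positions and matched 46005 of 46517 genes. Totals of 40480694 to 63220022 counts put the floor of 3 counts at 0.0475 to 0.0741 CPM, for counting error only. Replicates correlated at 0.974 to 0.986, and a chi-square test found more than sampling noise between the libraries of each pair (23.7 to 88.8 per degree of freedom). A sequence of 1 member is not reported here.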

Additional observations from a re-analysis of the deposited data

How the results depend on the processing

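In the double knockout against WT the 6 member calls held in all alternatives; 7389 genes were called in all, 1968 to 8333 with single libraries left out (2671 without WT replicate 1, 1968 without WT replicate 2, 2994 without double knockout replicate 1). In LEF1cKO against WT no alternative called a member; 118 genes were called in all, 78 (without WT replicate 2) to 138 with single libraries left out, 422 with no filter on low counts and 637 with DESeq2, of which 58.6 percent were higher against 37.3 percent in edgeR. In the double knockout against LEF1cKO 4952 genes were called, 2585 with only those 2 groups fitted and 1 to 5973 with single libraries left out, and 0 to 6 members (1 gene without double knockout replicate 1, 2884 without its replicate 2, 1652 without LEF1cKO replicate 1, 2201 and 2124 without WT replicates 1 and 2); the cause was not tested. Leaving out single libraries turned the sign of uncalled values: in LEF1cKO against WT they ran from -0.94 to 0.49 for Dlx1, -1.18 to 0.37 for Dlx2, -0.92 to 0.12 for Dlx3, -1.58 to 0.16 for Dlx4, -0.52 to 0.19 for Dlx6 and -1.05 to 0.043 for Msx2, and in the double knockout against WT from -0.24 to 0.47 for Dlx6. Dlx5 and Dlx6 dropped out under a minimum of 10 CPM. Summing Dlx1 with Dlx1as, an alternative chosen after seeing the data, changed no call of Dlx1.

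Replicate numbers did not pair the libraries: deviations from the group means correlated at -0.04 between WT and LEF1cKO, 0.06 between WT and the double knockout and -0.03 between LEF1cKO and the double knockout. With the replicate block 80, 6435 and 3635 genes were called in LEF1cKO against WT, the double knockout against WT and the double knockout against LEF1cKO, and the member calls stayed at 0, 6 and 6.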
